A study of Mus musculus with 38 samples.

Results

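Messenger RNA of mouse CD8 T cell clones that make IL-13 was compared, after activation, with that of an alloreactive CD8 clone. The comparison rests on 12 of the 38 arrays of the series, chosen by their labelled clone and state: 4 of activated sAg1 and 4 of activated sAg3, both with the phenotype CD8IL13+, against 4 of activated CD8bm1, with the phenotype allo CD8. All 12 samples came from cells cultured in RPMI medium with serum and held for 14 h on plates coated with the anti-CD3 antibody 145-2c11 (0.5 ug/ml), which engages the T cell receptor complex. Further tests used the dormant arrays of the same clones (3 of sAg1, 3 of sAg3 and 4 of CD8bm1) and the activated arrays of the IL13-negative clones 8uvmo-2 and 8uvmo-3 (4 each, phenotype CD8IL13-). Each group is a single clone, so 2 clones stand for the IL13+ phenotype and 1 for the alloreactive cells, and a difference of phenotype cannot be told apart from a difference between individual clones. The sources used here give neither the strain, sex and age of the donor mice nor whether the arrays of a group came from separate cultures, so p-values speak only to array-to-array spread, possibly technical.

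CD8 T cells are best known for a type 1 program of interferon gamma (Ifng), perforin (Prf1) and granzymes, which kills infected or foreign cells. IL-13 and IL-5 are type 2 cytokines: IL-13 acts on epithelium, smooth muscle and mucus production, and IL-5 on eosinophils. Their genes lie with Il4 in a cytokine cluster on chromosome 11, and in type 2 helper T cells the transcription factor GATA3 drives that cluster. An alloreactive T cell recognises MHC molecules of another strain.

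Il13, the cytokine gene that names the phenotype, and Il5, a type 2 cytokine gene that the labels do not mention, were far higher in the activated IL13+ clones than in CD8bm1. Il4 was not. Levels are log2 signals, on which 1 unit is a doubling, and a difference is the mean of both sAg clones minus CD8bm1 with its standard error. Il13 was at 10.32, 10.08, 9.12 and 8.52 on the sAg1 arrays and at 12.72, 12.87, 12.72 and 12.79 on the sAg3 arrays, against 6.87, 6.37, 6.63 and 6.51 on the CD8bm1 arrays. The difference was at least 4.55 ± 0.17, a fold of at least 23.4 (limma adjusted p = 2.06e-21), and every sAg array lay above every CD8bm1 array. It was 2.92 in sAg1 and 6.18 in sAg3. Il5 was at 8.16, 8.32, 6.93 and 6.70 in sAg1 and at 13.05, 13.18, 13.32 and 13.21 in sAg3, against 5.21, 5.07, 5.26 and 5.33 in CD8bm1, which gave a difference of at least 5.14 ± 0.18 (limma adjusted p = 1.09e-22). The sAg3 arrays were thus close to the top of the scale, while sAg1 spread over more than 1 unit in both genes, with its replicates 1 and 2 above its replicates 3 and 4. Il4, the third cytokine of the cluster, stayed below 7 in sAg1 (6.47 ± 0.10), sAg3 (6.45 ± 0.12) and CD8bm1 (6.47 ± 0.13; SD, n = 4 each), a level near background at which a difference says little.

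The 250 bases before the start of both genes are shown because both genes were higher together and GATA3 is known to act on this cluster. They are RefSeq sequences of build GRCm38.p6, 5′ to 3′ on the strand of the gene. Capitals mark GATA or its reverse complement TATC, the letters searched on both strands.
Il13, chr11:53634703-53634952, minus strand: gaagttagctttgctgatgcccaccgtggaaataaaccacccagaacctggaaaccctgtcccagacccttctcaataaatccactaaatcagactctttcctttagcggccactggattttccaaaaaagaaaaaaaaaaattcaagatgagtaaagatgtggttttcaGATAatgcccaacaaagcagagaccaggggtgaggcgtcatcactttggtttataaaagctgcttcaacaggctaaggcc
Il5, chr11:53720544-53720793, plus strand: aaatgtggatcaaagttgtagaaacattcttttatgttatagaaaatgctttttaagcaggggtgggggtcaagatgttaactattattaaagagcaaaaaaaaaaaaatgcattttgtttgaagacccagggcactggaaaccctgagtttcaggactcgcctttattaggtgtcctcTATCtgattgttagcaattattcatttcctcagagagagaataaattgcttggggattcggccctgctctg
Each window held 1 match, which began 80 bases before the start of Il13 and 71 bases before that of Il5. Of 32851 promoter windows of this length, 53.6% hold at least 1, so a match of 4 letters is common and marks no binding site by itself.

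Of 8 measured neighbours of Il13 on chromosome 11, 2 were called higher and 6 were not called. That is 25%, beside 6.49% of genes that reached 7 in at least 1 of the 3 groups. The median difference of the 8 was 0.089, and 4 of them were dim in all 3 clones. Rad50, a DNA repair gene that lies between Il5 and Il13, was higher in the IL13+ clones by 1.25 ± 0.086, with 9.81 to 10.34 in sAg1 and 10.48 to 10.61 in sAg3 against 9.0 to 9.21 in CD8bm1. Irf1, an interferon-induced transcription factor gene, was higher by at least 1.88 ± 0.14 on 1 probe set, while its other probe set differed by 0.24 and was not called. Kif3a, which encodes a kinesin motor, differed by 0.71 ± 0.065 and was not called, since it was 1.68 higher in sAg3 but at -0.26 in sAg1.

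Across the genome, 857 of 23410 named probe sets passed, of which 471 had more signal in the IL13+ clones and 386 less. A call required a Benjamini-Hochberg adjusted p under 0.05 over all probe sets, a log2 difference of at least 1 and both sAg clone means on the same side of the CD8bm1 mean. Against this stand the shares of all tested probe sets: 3.66% were called in either direction, 2.01% higher and 1.65% lower. Among genes that reached 7 in at least 1 of the 3 groups, 6.49% were called (3.6% higher, 2.9% lower). Beside these conditions, a check added after seeing the data asked whether all 8 sAg arrays lay beyond all 4 CD8bm1 arrays: they did for 750 of the 857, and for 16.5% of all probe sets. A level of 7, near the median of all values (6.91), was taken as dim, though no background was measured, and a difference with a clone of its lower side below 7 is written as at least that size unless a clone of the higher side was dim too. CD8bm1 was dim for 234 of the higher probe sets and both sAg clones were dim for 147 of the lower ones, while 392 were at 7 or more in all 3 clones.

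**Figure D1:**
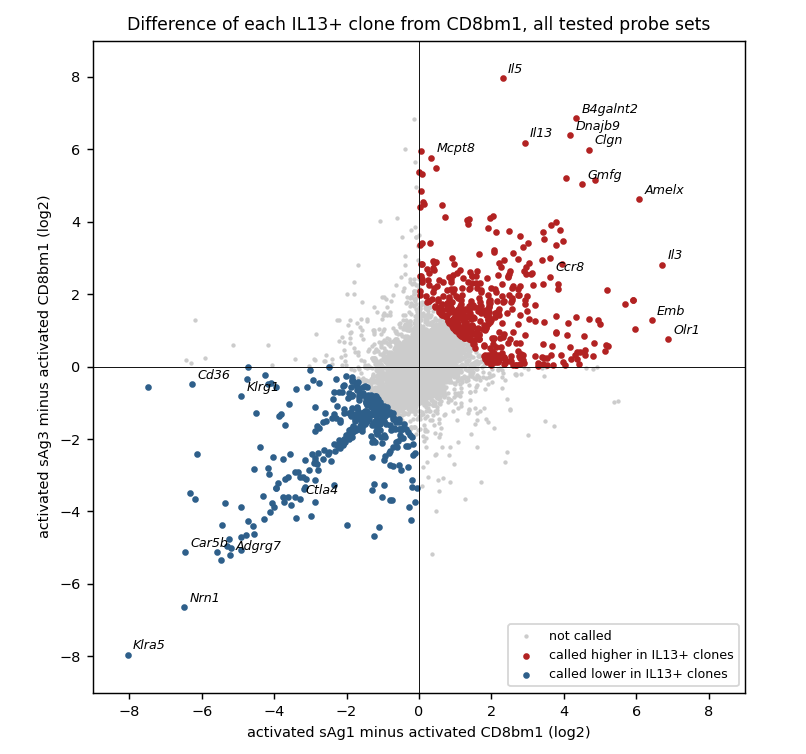
Each point is 1 of the 23410 named probe sets, with its log2 difference from activated CD8bm1 in activated sAg1 (x axis) and in activated sAg3 (y axis); both axes subtract the same 4 CD8bm1 arrays. Red points were called higher (471) and blue points lower (386) in the IL13+ clones; Klra5 and Nrn1 lie near the diagonal, while Olr1 and Emb lie toward sAg1 and Il5 and Mcpt8 toward sAg3.

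Arrays of 1 clone agreed closely (r = 0.9956 to 0.9981 across the named probe sets), and array medians were 7.01 to 7.09 in the IL13+ clones and 7.03 to 7.08 in CD8bm1. The clone means correlated at 0.9676 between sAg1 and sAg3, at 0.9664 between sAg1 and CD8bm1 and at 0.9700 between sAg3 and CD8bm1, values that lie close together, with sAg3 nearer to CD8bm1 than to sAg1 by this measure. The first principal component of the 12 arrays (48.4% of the variance) set sAg1 apart from the others and the second (41.2%) set sAg3 apart from CD8bm1. With each clone reduced to 1 mean, a test of 2 IL13+ clones against 1, most calls were lost, those of Il13 and Il5 among them. The single alloreactive clone gave no spread of its own. That of the fit came from the sAg and 8uvmo pairs in both states, and the 2 states of a clone were counted as independent. Of the 96 called genes that the selection rule picked, 8 passed that test: Gmfg and Amelx among the higher ones, and Adgrg7, Macc1, Cd1d1, Car5b, Me1 and the receptor segment Trbv1 among the lower ones.

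Il5, Il13 and Il3 were among the 12 higher genes with the greatest difference, and the others have varied known roles. B4galnt2, a glycosyltransferase gene, was at 10.32, 10.51, 10.43 and 10.24 in sAg1 and 12.95, 12.90, 12.85 and 12.90 in sAg3, against 6.32, 6.13, 5.83 and 5.91 in CD8bm1, at least 5.59 ± 0.092 higher. Amelx, which encodes the enamel protein amelogenin, was at 12.24, 12.01, 12.31 and 12.12 in sAg1 and 10.24, 11.28, 10.61 and 10.77 in sAg3, against 5.99, 6.0, 6.02 and 6.37 in CD8bm1, at least 5.35 ± 0.16 higher (limma adjusted p = 3.90e-24). Both genes were bright on all 8 sAg arrays and dim on all 4 CD8bm1 arrays. Clgn, a chaperone gene of the endoplasmic reticulum first known from testis, was at least 5.34 ± 0.10 higher, and Dnajb9, a cochaperone gene of the same compartment, at least 5.28 ± 0.14 higher. Dnajb9 ranged over 8.03 to 8.61 in sAg1 and 10.38 to 10.71 in sAg3, against 3.99 to 4.56 in CD8bm1. Ly6a2, of the family of GPI-anchored Ly6 proteins, was at least 5.02 ± 0.16 higher. Gmfg, which encodes an actin regulator of blood cells, was 4.77 ± 0.060 higher, with 11.73, 11.66, 11.67 and 11.46 in sAg1 and 12.05, 12.15, 12.24 and 12.27 in sAg3, against 6.97, 7.22, 7.21 and 7.14 in CD8bm1. A second Gmfg probe set gave 1.70, a smaller difference that was also called. Tubb6, a beta tubulin gene, was 4.63 ± 0.12 higher. Tnfrsf11b, which encodes osteoprotegerin, the decoy receptor for RANKL, was at least 3.88 ± 0.20 higher, by similar amounts in both clones (3.79 in sAg1 and 3.98 in sAg3). Tmem176b, a transmembrane protein gene, was at least 3.87 ± 0.20 higher, more in sAg1 (5.91) than in sAg3 (1.83).

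Of the 12 lower genes with the greatest difference, 9 were bright in CD8bm1 and dim in both sAg clones, and the differences of all 12 are lower bounds in size. Klra5, a Ly49 receptor gene of natural killer and some CD8 T cells, was at 3.38, 3.84, 3.68 and 4.01 in sAg1 and 3.72, 3.73, 3.71 and 4.10 in sAg3, against 11.81, 11.77, 11.62 and 11.89 in CD8bm1. Its difference of -8.00 ± 0.18 (limma adjusted p = 3.35e-28) was the largest in size among the genes named here; Klra genes are near-identical copies, so its signal may include others of the family. Nrn1, which encodes the neuronal surface protein neuritin, was at 6.17 to 6.54 in sAg1 and 5.92 to 6.41 in sAg3, against 12.65 to 12.89 in CD8bm1 (-6.56 ± 0.13). Car5b, a mitochondrial carbonic anhydrase gene, differed by -5.80 ± 0.11 and Car9, the hypoxia-induced carbonic anhydrase of the cell surface, by -4.91 ± 0.14. Me1, the cytosolic malic enzyme that supplies NADPH, differed by -5.35 ± 0.12 and by -5.12 on a second probe set. All of these were dim in sAg1, and Car9 alone of them was above 7 in sAg3 (7.70). Adgrg7, an adhesion G protein-coupled receptor gene, was at 5.42, 5.44, 5.52 and 5.39 in sAg1 and 5.31, 5.49, 5.58 and 5.45 in sAg3, against 10.69, 10.62, 10.63 and 10.74 in CD8bm1 (-5.22 ± 0.095). Macc1, a regulator of the growth factor receptor gene Met, was at 4.53, 4.61, 4.81 and 4.78 in sAg1 and 4.70, 5.16, 5.04 and 4.67 in sAg3, against 9.72, 9.61, 9.62 and 9.47 in CD8bm1 (-4.82 ± 0.12). Both genes were dim on all 8 sAg arrays and bright on all 4 CD8bm1 arrays. Sema3d, a semaphorin gene (-5.00 ± 0.11), Enpp6, a choline phosphodiesterase gene (-4.91 ± 0.13), and H2-M10.1, a nonclassical MHC gene (-4.71 ± 0.14), followed. Lxn, which encodes the carboxypeptidase inhibitor latexin (-4.58 ± 0.11), and Dsc2, a desmosomal cadherin gene (-4.56 ± 0.15) were the last of the 12. Enpp6 was still at 9.03 in sAg3 and at 6.21 in sAg1, against 12.53 in CD8bm1. The T cell receptor segment Trbv1 marks clone identity: it was at 7.55 to 8.15 in sAg1 and 7.84 to 8.38 in sAg3, against 12.88 to 13.22 in CD8bm1 (-5.11 ± 0.10).

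**Figure D2:**
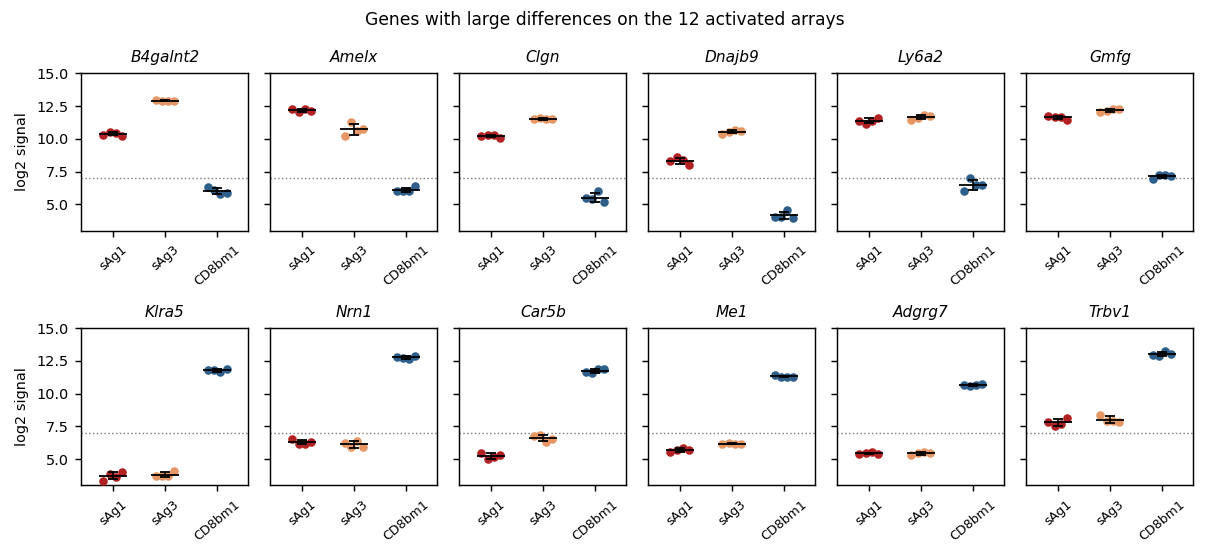
Log2 signal (y axis) of 12 genes on each activated array, with 4 points per clone in the order sAg1, sAg3 and CD8bm1; black bars are the mean and SD, and the dotted line is the dim level of 7. The upper 6 genes were higher and the lower 6 lower in the IL13+ clones, and for all 12 the sAg points and the CD8bm1 points do not overlap.

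Some cytokine genes outside the type 2 pair were called higher as well, among them Il3, Csf2 and Xcl1, which were highest in sAg1. Il3, a growth factor gene for blood progenitors and basophils, was at 12.03, 11.65, 11.78 and 11.46 in sAg1 and 8.06, 7.99, 7.67 and 7.64 in sAg3, against 4.87, 4.85, 5.24 and 5.14 in CD8bm1, at least 4.76 ± 0.16 higher (limma adjusted p = 3.69e-23). Csf2, which encodes GM-CSF, was at 11.70, 11.76, 11.55 and 11.91 in sAg1 and 7.87, 7.79, 7.51 and 7.49 in sAg3, against 5.87, 5.90, 5.93 and 5.64 in CD8bm1, at least 3.86 ± 0.24 higher. In both genes all 3 clones were apart, with sAg1 highest and CD8bm1 lowest and dim. Il2, the T cell growth factor gene, was called with 1.59 ± 0.17, yet sAg3 was dim (6.12 to 6.55) and so was CD8bm1 (5.18 to 5.57), which left the level above 7 to sAg1 (7.23 to 7.99). Csf1, the macrophage growth factor gene, was 2.52 higher on average, made up of 4.58 in sAg1 and 0.46 in sAg3. Hbegf, an EGF receptor ligand gene, ran the other way and was 4.06 higher in sAg3 and 1.32 in sAg1. Xcl1, a chemokine gene for dendritic cells, was at 13.64, 13.70, 13.62 and 13.65 in sAg1 and 10.27, 9.66, 9.63 and 9.23 in sAg3, against 7.69, 7.62, 8.40 and 8.17 in CD8bm1, 3.71 ± 0.13 higher. Ccl9, a myeloid chemokine gene, was at least 2.35 ± 0.16 higher. Of 27 measured interleukin and growth factor genes, 6 were called higher and 0 lower (22.2%, median difference 0.19). Of 19 chemokine ligand genes 2 were higher and 0 lower (10.5%, median 0.36), both beside 6.49% of genes at 7 or more in a group. In sAg3 alone the counts were 4 higher and 1 lower, and 2 higher and 1 lower.

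Ifng, Gzmb and Prf1, the type 1 and cytotoxic genes best known from CD8 T cells, were not called, while other members of both lists were. Ifng differed by 0.25 ± 0.067 (limma adjusted p = 0.00292), under the minimum of 1, with 14.04 to 14.16 in sAg1 and 13.49 to 13.69 in sAg3, against 13.33 to 13.69 in CD8bm1. Gzmb, which encodes granzyme B, differed by 0.046 ± 0.062 (limma adjusted p = 0.669) and the perforin gene Prf1 by -0.14 ± 0.14 (limma adjusted p = 0.57). Prf1 was at -0.51 in sAg1 and 0.24 in sAg3. The brightest probe set of each array stood at 14.32 to 14.46, close to these values, so small differences here do not show that the levels were equal. Tnf differed by 0.83 ± 0.098, under the minimum, with 1.95 in sAg1 and -0.29 in sAg3. The type 1 regulator Tbx21 differed by 0.087 ± 0.064, while Eomes, its relative, was called at 1.46 ± 0.14 although sAg1 (5.73) was as dim as CD8bm1 (5.63), beside 8.47 in sAg3. Il10, an anti-inflammatory cytokine gene, differed by 0.23 ± 0.17 and was not called, with 0.875 in sAg1 and -0.42 in sAg3. Of 22 type 1 genes 3 were higher and 0 lower (8 and 0 in sAg1 alone, 4 and 3 in sAg3 alone), with Stat4, the IL-12 signal transducer, at 1.42. The called shares were 13.6% of these type 1 genes and 16% of the cytotoxic granule genes, beside 6.49% of genes at 7 or more in a group. Of 25 cytotoxic granule genes 3 were higher and 1 lower (5 and 3 in sAg1 alone, 2 and 3 in sAg3 alone): Crtam, an adhesion receptor gene of activated CD8 T cells, was at least 2.74 higher, and Serpinb6b, a protease inhibitor gene, was 1.58 higher. Gzmn, a granzyme gene of a cluster of close copies, was the lower one, at -3.16.

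**Figure D3:**
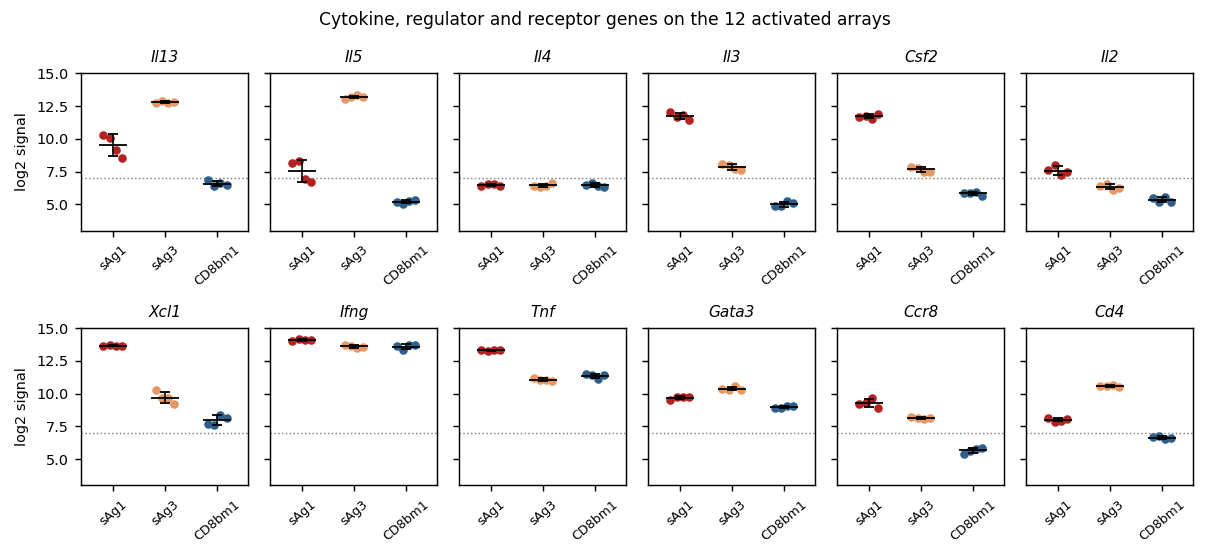
Log2 signal (y axis) of cytokine, regulator and receptor genes on each of the 12 activated arrays, with sAg1, sAg3 and CD8bm1 from left to right; black bars are the mean and SD (n = 4) and the dotted line is the dim level of 7. Il13 and Il5 were highest in sAg3 and Il3, Csf2 and Xcl1 in sAg1, while Il4 was dim in all 3 clones and Ifng was near 14 in all of them.

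Gata3, Ccr8 and other genes of the type 2 program were higher in the IL13+ clones, by less than Il13 and Il5. Gata3 was at 9.53, 9.73, 9.75 and 9.75 in sAg1 and 10.33, 10.31, 10.56 and 10.30 in sAg3, against 8.87, 8.92, 9.09 and 9.04 in CD8bm1, a difference of 1.05 ± 0.064 (limma adjusted p = 1.19e-15). The groups did not overlap, and CD8bm1 itself was well above the dim level. The difference was close to the minimum of 1 (1.02 to 1.09 with single arrays left out), and sAg3 lay further above CD8bm1 than sAg1 did. Ccr8, a chemokine receptor gene of type 2 T cells, was at 9.20, 9.31, 9.69 and 8.92 in sAg1 and 8.24, 8.18, 8.08 and 8.11 in sAg3, against 5.39, 5.63, 5.79 and 5.86 in CD8bm1, at least 3.05 ± 0.11 higher. Dusp4, a MAP kinase phosphatase gene, was 2.07 ± 0.12 higher, and Tnfsf11, which encodes RANKL, 2.13 ± 0.093 higher, RANKL mostly in sAg1 (3.68, beside 0.58 in sAg3). Hpgds, the prostaglandin D2 synthase gene, was 1.69 higher on average, from sAg3 at 8.74, while sAg1 was dim at 6.33. Of 25 measured type 2 genes, 10 were called higher and 0 lower (40%, beside 6.49% of genes at 7 or more in a group), and the median difference was 0.69, against -0.0012 over all probe sets. In sAg1 alone 9 were higher and 0 lower, and in sAg3 alone 7 were higher and 1 lower. The list holds Il13, which names the phenotype, so this share is partly set by the choice of clones.

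Among coreceptor genes, Cd4 and the gene of the CD4 lineage factor were higher, while both CD8 genes were bright in every clone. Cd4 was at 8.12, 7.87, 7.93 and 8.10 in sAg1 and 10.61, 10.58, 10.68 and 10.50 in sAg3, against 6.67, 6.79, 6.52 and 6.61 in CD8bm1, at least 2.65 ± 0.14 higher (limma adjusted p = 1.52e-17). Zbtb7b, which encodes the CD4 lineage factor ThPOK, was 1.62 ± 0.067 higher, with 8.64 to 8.82 in sAg1 and 8.45 to 8.65 in sAg3, against 6.89 to 7.17 in CD8bm1. Runx1, a transcription factor gene of T cell development, was 2.18 ± 0.10 higher, and Themis, a gene of T cell receptor signalling, 1.08 ± 0.083 higher. Cd8a averaged 12.82 in sAg1 and 12.34 in sAg3, against 11.93 in CD8bm1, and its difference of 0.65 ± 0.056 was under the minimum. Cd8b1 averaged 12.90 in sAg1 and 12.40 in sAg3, against 12.73 in CD8bm1 (-0.078 ± 0.050, limma adjusted p = 0.293). Of 20 genes of coreceptors and the receptor complex, 5 were higher and 0 lower (25%, beside 6.49% of genes at 7 or more in a group). The one not yet named, chosen after its values were seen, is the adhesion receptor gene Cd2, at 1.02. Its call came from sAg1 (8.33), since sAg3 (6.65) was about as dim as CD8bm1 (6.465). Cd2 was under the minimum without any 1 of 4 arrays (0.86 without CD8bm1 replicate 3, 0.96 and 0.98 without sAg3 replicates 1 and 2, 0.99 without CD8bm1 replicate 4).

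Homing genes were higher in some members and lower in none that passed for both IL13+ clones together, while the clones differed when taken singly. Of 24 chemokine and homing receptors 5 were higher and 0 lower (20.8%, beside 6.49% of genes at 7 or more in a group), with a median difference of 0.042. In sAg1 alone 8 were higher and 0 lower, and in sAg3 alone 4 were higher and 3 lower. Cd44, the hyaluronan receptor gene, averaged 2.79 higher and Cxcr6, a tissue homing receptor gene, 2.46 higher, but both came from sAg1 (5.14 and 4.58), since sAg3 was dim in both (6.59 and 6.27). Ccr1, a receptor of inflammatory chemokines, was 1.46 higher, and the fifth, Selplg, the P-selectin ligand gene, chosen after its values were seen, was 1.45 higher. The collagen-binding integrin gene Itga1 was bright everywhere, at 11.56 in sAg1 and 12.02 in sAg3, against 12.10 in CD8bm1, and differed by -0.31 ± 0.11, below the minimum. S1pr1, the egress receptor gene, averaged 6.38 in sAg1 and 7.26 in sAg3, against 7.23 in CD8bm1 (-0.41 ± 0.14), and was not called. Of 17 integrin genes 1 was higher and 0 lower (5.88%, under the share of genes at 7 or more), with 2 and 4 in sAg1 alone and 3 and 0 in sAg3 alone.

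Costimulatory and inhibitory receptor genes moved in both directions. Shares of called members here stand beside the 6.49% of genes at 7 or more in a group. Of 20 costimulatory TNF family genes 4 were higher and 1 lower (25%), with 7 and 3 in sAg1 alone and 1 and 0 in sAg3 alone. Tnfrsf18, which encodes GITR, was 2.22 ± 0.11 higher, with 10.26 to 10.68 in sAg1 and 9.73 to 10.15 in sAg3, against 7.93 to 8.16 in CD8bm1. Tnfsf4, which encodes OX40 ligand, was 4.80 higher in sAg1 and dim in sAg3 (5.54), and Ltb, which encodes lymphotoxin beta, was 2.36 higher, mostly in sAg1. The lower one, chosen after its values were seen, was the TRAIL receptor gene Tnfrsf10b (-1.14). Of 20 inhibitory receptor and exhaustion genes 4 were higher and 1 lower (25%), with 6 and 3 in sAg1 alone and 4 and 3 in sAg3 alone. The checkpoint receptor gene Ctla4 was at 8.77, 8.60, 8.69 and 7.83 in sAg1 and 7.80, 8.29, 8.05 and 8.22 in sAg3, against 11.99, 11.37, 11.89 and 11.77 in CD8bm1 (-3.47 ± 0.37, limma adjusted p = 1.32e-09). Lilrb4a, an inhibitory receptor gene with a close copy in Lilr4b, was 1.72 higher, and the orphan receptor genes Nr4a1 and Nr4a3, induced through the T cell receptor, were 2.48 and 1.64 higher. Of 31 early response genes 6 were higher and 1 lower (22.6%), with 10 and 1 in sAg1 alone and 3 and 4 in sAg3 alone. Egr2 was 1.89 higher, from sAg1 (3.53, beside 0.24 in sAg3), and Rgs2, a regulator of G protein signalling, was lower (-3.56 ± 0.18). Of 21 NK receptor genes 1 was higher and 3 lower (19%), with Klrg1, an inhibitory receptor gene of effector cells, at -2.86, -4.91 in sAg1 and -0.81 in sAg3. Of 29 cytokine receptor genes 4 were higher and 0 lower (13.8%), with 6 and 1 in sAg1 alone and 4 and 3 in sAg3 alone. Il10ra, the IL-10 receptor gene, was higher by 1.95, more in sAg3 (2.99) than in sAg1 (0.90). Tgfbr3, a coreceptor gene for TGF beta, was higher by 1.45 and alike in both clones (1.33 and 1.58). Of 22 resting and memory T cell genes 3 were higher and 0 lower (13.6%), among them the chromatin organiser gene Satb1 (1.26) and the antiproliferative gene Btg1 (1.20). In sAg1 alone 4 of that list were higher and 0 lower, and in sAg3 alone 1 was higher and 2 lower.

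Metabolic genes were called in both directions, in shares to be read beside the 6.49% of genes at 7 or more in a group. Of 25 glycolysis and hypoxia genes 1 was higher and 3 lower (16%). Aldoc, an aldolase gene, differed by -2.95 ± 0.27, with 6.35 to 6.55 in sAg1 and 6.51 to 6.79 in sAg3, against 9.37 to 9.71 in CD8bm1. Slc2a3, a glucose transporter gene, was at 7.60 to 8.00 in sAg1 and 10.32 to 10.87 in sAg3, against 11.15 to 11.33 in CD8bm1 (-2.01 ± 0.14), whereas Hif1a, the hypoxia-inducible factor gene, was 1.07 higher. Aldoc averaged below 7 in both sAg clones, and Slc2a3 was lowest in sAg1. Of 24 cholesterol and fatty acid genes 0 were higher and 2 lower (8.33%), with the sterol sensor gene Insig1 at -1.24, and of 25 amino acid and one-carbon genes 0 were higher and 1 lower (4%), the neutral amino acid transporter gene Slc1a4 at -1.35. Of 21 genes of the unfolded protein response (9.52% called) 1 was higher, Dnajb9, and 1 lower, the stress-induced pseudokinase gene Trib3 (-1.17). Of 39 cell cycle genes 0 were called in either direction, with a median difference of -0.29, near 0 in sAg1 and -0.58 in sAg3.

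Antigen presentation and lipid mediator genes each held a few called members, 22.2% and 12% of those measured, beside 6.49% of genes at 7 or more in a group. Of 18 antigen presentation genes 2 were higher and 2 lower. Mr1, which presents vitamin B metabolites to innate-like T cells, was at 6.30, 6.64, 6.78 and 6.78 in sAg1 and 6.42, 6.40, 6.42 and 6.39 in sAg3, against 9.83, 9.80, 9.76 and 9.79 in CD8bm1 (-3.28 ± 0.096). Cd1d1, which presents lipids, was at 5.76 to 6.32 in sAg1 and 6.25 to 6.47 in sAg3, against 7.89 to 8.27 in CD8bm1 (-1.81 ± 0.11). Both were dim in the IL13+ clones, so these differences are bounds. Cd74, the MHC class II chaperone gene, was at least 1.95 higher. Nlrc5, the transactivator gene of MHC class I, was 1.04 higher on the probe set used, and 4 of its 18 others were called (1.02 to 1.06), while all 18 ran from 0.32 to 1.06. Of 25 prostaglandin and leukotriene genes 2 were higher and 1 lower, with the prostaglandin E receptor gene Ptger4 at 1.34. Among 26 interferon-stimulated genes there were 3 higher and 1 lower call (15.4%), with the exonuclease gene Isg20 at -1.83, and the antiviral gene Mx1 was at least 1.28 higher. Of the 22 described lists, 15 held more higher than lower members, 4 more lower and 1 none, and 19 had a called share above that of genes at 7 or more in a group; the lists were made up of known T cell genes and no list was tested as a set.

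**Figure D4:**
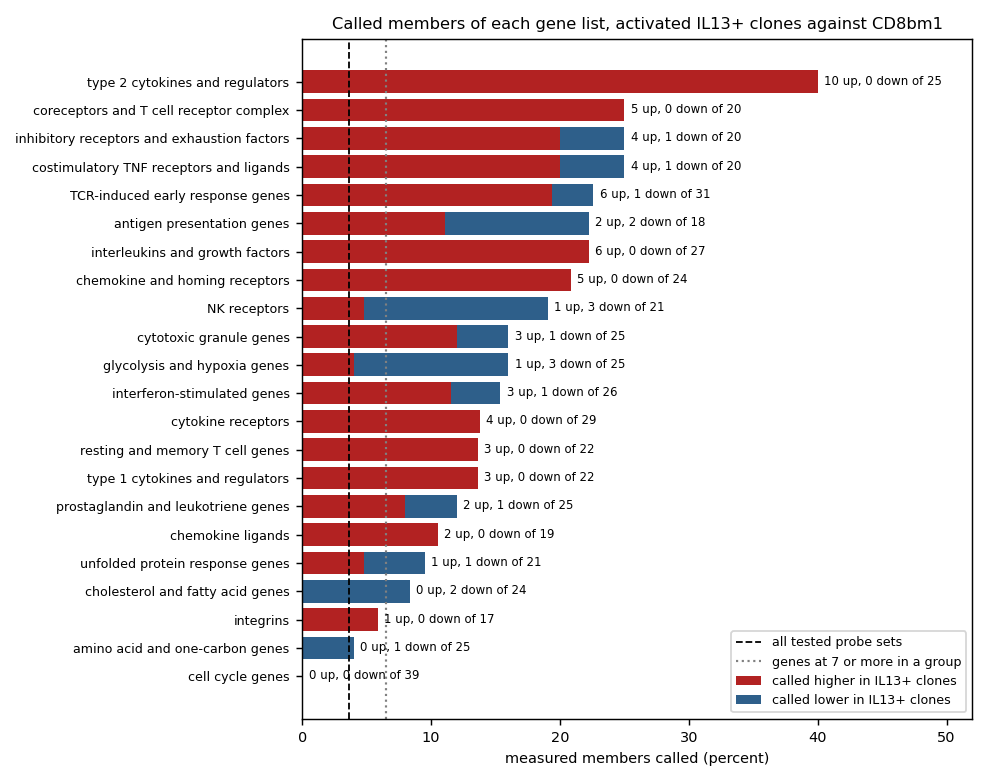
Percent of measured members called in each gene list (x axis), split into higher (red) and lower (blue) in the IL13+ clones against CD8bm1. The dashed line is the share of all tested probe sets (3.66%) and the dotted line that of genes at 7 or more in a group (6.49%). Type 2 cytokines and regulators, a list that holds Il13, stand at 40%, and cell cycle genes at 0.

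The called genes with the widest gap between the 2 IL13+ clones are described next; they were chosen for that gap, which is therefore no finding. Olr1, a scavenger receptor gene, was at 11.99, 12.09, 11.97 and 11.83 in sAg1 but dim in sAg3 (6.07, 6.06, 5.68 and 5.58), against 5.33, 4.99, 4.78 and 5.29 in CD8bm1. Emb, which encodes the adhesion protein embigin, was at 10.77 to 10.94 in sAg1 and 5.31 to 6.21 in sAg3, against 4.20 to 4.66 in CD8bm1. In both genes only sAg1 was above the dim level. Mcpt8, a protease gene best known from basophils, was at 6.36 to 6.91 in sAg1 and 11.82 to 12.31 in sAg3, against 5.60 to 6.85 in CD8bm1, and Serpinb9e, of a family of close copies, was at 4.66, 9.90 and 4.57 in the same order. Cd36, a fatty acid transporter gene, was at 4.14 to 5.49 in sAg1 and 10.62 to 10.87 in sAg3, against 10.99 to 11.46 in CD8bm1, so the mean difference of -3.39 came from sAg1. Compared singly, 1190 probe sets were called in sAg1 (5.08% of those tested; 2.76% higher, 2.33% lower) and 1122 in sAg3 (4.79%; 2.59% higher, 2.2% lower), both against the same 4 CD8bm1 arrays. The median gap between sAg1 and sAg3 was 0.67 in size over the called probe sets and 0.15 over all named ones, and 463 probe sets were called in the same direction in sAg1 and in sAg3 singly.

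Whether the difference between the clones depended on activation was tested as the activated difference minus the dormant one, and 775 probe sets were called (3.31%; 521 or 2.23% positive, 254 or 1.09% negative), with the same sign required in both sAg clones. Il3 had the largest positive value: the IL13+ clones differed from CD8bm1 by -0.12 when dormant and by 4.76 when activated (change 4.88 ± 0.23, limma adjusted p = 5.23e-17). Xcl1 (0.20 dormant, 3.71 activated, change 3.50 ± 0.19) and Olr1 (0.38 dormant, 3.81 activated, change 3.43 ± 0.17) behaved alike, with all 3 dormant clones dim. For Aldoc the change of 3.57 ± 0.40 was a smaller deficit, -6.52 dormant and -2.95 activated. Il13 differed by 2.07 dormant and by 4.55 activated (change 2.48 ± 0.25, limma adjusted p = 3.31e-09), and the dormant excess lay in sAg3 (10.29), since dormant sAg1 was at 6.24 and dormant CD8bm1 at 6.19. Il5 differed by 3.38 dormant and by 5.14 activated, and it too was bright among dormant clones in sAg3 alone (10.88). Gata3 (1.12 dormant, 1.05 activated), Ccr8 (3.16 and 3.05), Gmfg (4.80 and 4.77) and Klra5 (-7.53 and -8.00) differed in the dormant state as well, and their changes were not called. Among negative values, Ifng was 2.39 higher in the dormant IL13+ clones and 0.25 activated, where its level nears the maximum (change -2.14 ± 0.097). Lilr4b (-3.60 ± 0.25) and Lilrb4a (-2.73 ± 0.21) had smaller differences after activation than before. Markers of other cell types were examined on the activated arrays only, so other cells in the dormant samples were not assessed. Ctla4, Hhipl1 and Ccl12, a chemokine gene for monocytes, were lower after activation by more than before: Ctla4 by -0.78 dormant and -3.47 activated, Hhipl1 by -0.46 and -3.51, and Ccl12 by -1.56 and -4.40. Of the 39 cell cycle genes 23 had a called change, all positive, and of the 24 cholesterol and fatty acid genes 13, of which 12 were positive. After activation 0 of these cell cycle genes were called against CD8bm1 (median difference -0.29). Of the cholesterol and fatty acid genes 0 were then higher and 2 lower (median -0.048). These positive changes thus came with no called excess over CD8bm1 after activation. Without clone sAg3 the count of called changes was 1661, and without single arrays it ran from 663 to 864.

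**Figure D5:**
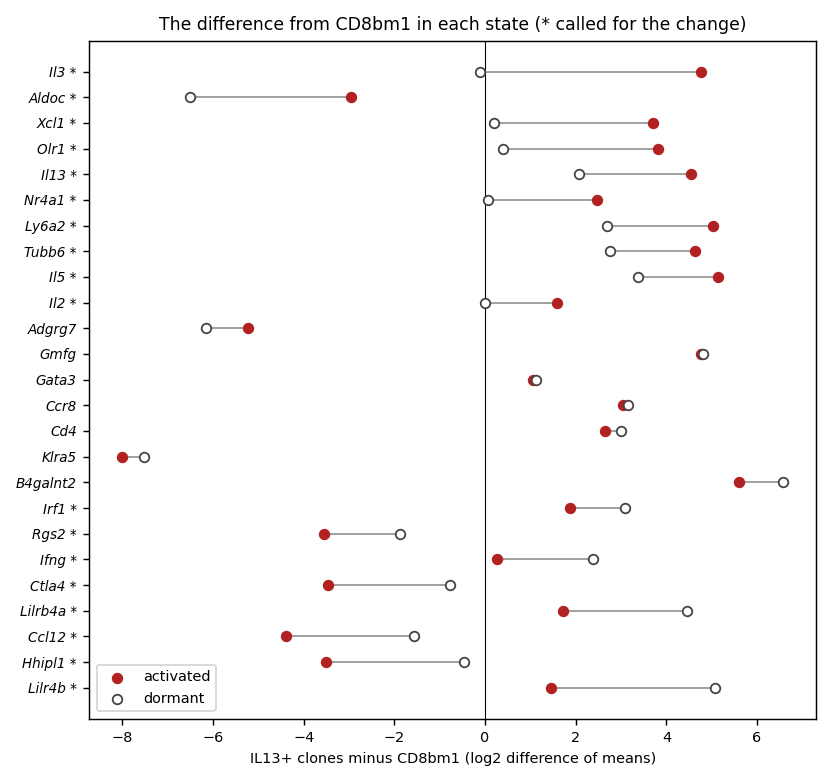
Log2 difference of the IL13+ clones from CD8bm1 (x axis) for 25 genes, activated (filled) and dormant (open), sorted by the change between the states; an asterisk marks a called change. Il3, Xcl1 and Olr1 differed only little when dormant, while Gmfg, Gata3, Ccr8 and Cd4 differed by about as much in both states.

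The same activated IL13+ arrays were set against the IL13-negative clones, which asks which of the genes above also differed there; both comparisons share the 8 sAg arrays. In that test 410 probe sets were called (1.75%; 156 or 0.666% higher, 254 or 1.09% lower), with both sAg means beyond both 8uvmo means. Of the 857 probe sets called against CD8bm1, 49 were called higher in both tests and 57 lower in both. Another 41 were called in opposite directions, and most of the 857 were not called there. Il13 was 3.98 ± 0.14 higher (8uvmo-2 at 7.81, 8uvmo-3 at 6.52) and Il5 4.91 ± 0.14 higher. Gata3 (1.10), Ccr8 (3.29), Dusp4 (2.26), Tgfbr3 (1.57), Amelx (5.00), Ly6a2 (2.71) and Tubb6 (1.98) were called higher there too. Klra5 (-5.29), Nrn1 (-4.92), Sema3d (-2.12), Macc1 (-2.0), Lxn (-3.73), Mr1 (-2.40), Rgs2 (-1.74), Aldoc (-1.65) and Slc2a3 (-3.11) were called lower there too. Klra5 was at 12.13 in 8uvmo-3 and 5.99 in 8uvmo-2, so CD8bm1 was not the only bright clone. Genes whose difference from CD8bm1 had no called counterpart include B4galnt2 (0.88 ± 0.075), Gmfg (0.59 ± 0.049) and Dnajb9 (-0.56 ± 0.11): the IL13-negative clones were bright in these 3 as well, and CD8bm1 was the low clone. In the same way Car5b (0.78 ± 0.092), Me1 (-0.54 ± 0.098) and Adgrg7 (-0.19 ± 0.078) were low in the IL13-negative clones too (7.21 at most, Me1 in 8uvmo-3), and CD8bm1 was the high clone. Xcl1 (-2.30 ± 0.11), Ccl9 (-2.40 ± 0.13) and Crtam (-2.11 ± 0.091) were higher in the IL13+ clones than in CD8bm1 but lower than in the IL13-negative clones. Cd4 was not called there (2.03 ± 0.11), since 8uvmo-2 at 8.09 lay slightly above sAg1 at 8.01. Itga1 was 5.64 ± 0.092 higher than in the IL13-negative clones, though it was not called against CD8bm1.

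Markers of the labelled cell type were present: of 10 measured T cell markers 0 were dim in all 3 clones, and Cd3e averaged 12.64 in sAg1 and 12.49 in sAg3, against 12.53 in CD8bm1. Of 25 macrophage and dendritic cell markers 20 were dim in all 3 clones, among them Lyz2, Csf1r, Adgre1 and C1qa. Only 1 was called (4%, beside 6.49% of genes at 7 or more in a group). It was the protease gene Ctss, at 6.98 in sAg1 and 10.81 in sAg3, against 6.35 in CD8bm1. The others were above 7 in all 3 clones: Itgax at 8.65 in sAg1 and 11.37 in sAg3, against 10.275 in CD8bm1, Cd68 at 8.38 and 8.9, against 7.81, and Apoe and Zbtb46. The log2 of that list's summed signal was 11.3 to 11.5 in sAg1 and 12.6 to 12.9 in sAg3, against 11.6 to 11.7 in CD8bm1. Of 14 B cell markers 12 were dim in all 3 clones and 0 were called, and Ebf1 stood at 9.38 in sAg1 and 5.39 in sAg3, against 8.84 in CD8bm1. Of 18 stromal and epithelial markers 10 were dim in all 3 clones and 2 were called (11.1%). These were Thy1, which T cells express as well, and the matrix gene Lum, at 5.07 in sAg1 and 7.03 in sAg3, against 4.79 in CD8bm1. These called markers were chosen after their values were seen. In such bulk samples fewer cells with a transcript and less of it per cell cannot be told apart. By chromosome, genes with a mean of at least 7 had a median difference of -0.24 on chromosome 1 (42 of 58 called probe sets lower) and 0.17 on chromosome 8, against 0.014 over all. The chromosome 8 value lay mostly in sAg3 (0.28, beside 0.079 in sAg1). On chromosome 1 sAg1 was at -0.155 and sAg3 at -0.33. The part of these chromosomes in the calls was not tested.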

How the data were processed

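Total RNA of T cell clones was hybridised to 38 Affymetrix arrays (1 per sample), of which 12 carry this comparison; per the labels' protocols, RNA was extracted with RNeasy and 100 ng of it labelled by the WT Plus protocol. The authors deposited log2 signals; the submitters' processing notes name Partek and RMA, a standard summary method for such arrays, with no version or setting. Whether the 38 arrays were normalized as 1 set is not given there. There is no read depth for arrays, and their number limits the precision.

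The table held 35556 rows, of which the platform annotation names a gene for 23410 (21789 with 1 symbol, 1621 with several); these were tested. Gene numbers matched the RefSeq table of GRCm38.p6 for 21698, used for names and chromosomes. A gene with more than 1 probe set is represented by its brightest one, by mean over the 38 arrays. Groups came from the labels. A limma fit (version 3.58.1, R 4.3.3) with 1 mean per clone and state over all 38 arrays, moderated variances with a trend and two-sided tests gave each contrast of clone means, with both sAg clones weighted equally and Benjamini-Hochberg adjustment over 23410 probe sets. Errors of differences are standard errors and errors of means are SD. On simulated data with 200 changed genes among 23410, the comparison with CD8bm1 and that with the IL13-negative clones each recovered 100% at changes of 1.5, 2 and 3, with 0 false calls. The change with activation recovered 99.5% at 1.5 (2 false calls) and 100% at 2 and 3 (0 and 1). Simulated clones differed in the 200 changed genes alone, by the same amount in both sAg clones, with only array-to-array spread added. The false calls therefore say nothing about differences between individual clones.

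The rule for named genes took 20 key genes, the 12 called genes with the greatest difference per direction (leaving out predicted loci, small RNAs and receptor segments), up to 4 called genes per list, the widest clone gaps, the greatest changes with activation, receptor segments and neighbours of Il13; not all are described. The 27 gene lists hold 588 symbols. The members, lists and tests were chosen with earlier results of these data known. Alternatives covered the fold minimum, filters, centring, quantile normalization, the variance model, array weights, the arrays in the fit, the replicate block, the clone as the unit and each array or clone left out; the condition on all arrays was added after seeing the data.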

Additional observations from a re-analysis of the deposited data

Results flagged for a closer look

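Among 309 groups of 4 arrays examined for the genes named above, 21 held an array that stood apart from the other 3 by Dixon's criterion, which chance meets in about 1 in 20 groups, or 15.4 here. The flags were not spread evenly over the arrays, and replicate 4 of sAg1 was flagged most often. In sAg1, replicate 4 stood apart for Cd8a (12.65, others 12.87 to 12.90), Tmem176b (12.05, others 12.26 to 12.29), Car9 (6.45, others 6.65 to 6.69), Cd44 (11.41, others 11.26 to 11.27), Themis (10.81, others 11.17 to 11.22), Cd1d1 (5.76, others 6.23 to 6.32), Slc1a4 (8.40, others 7.57 to 7.60) and Hif1a (12.43, others 12.48 to 12.49). Replicate 1 of sAg1 stood apart for Gata3 (9.53, others 9.73 to 9.75). In sAg3, replicate 1 stood apart for Trbv1 (8.38, others 7.84 to 7.91), replicate 2 for Gzmb (14.02, others 13.95 to 13.96), Cxcr6 (6.63, others 6.14 to 6.16) and Ccl12 (6.81, others 6.05 to 6.15), replicate 3 for Gata3 (10.56, others 10.30 to 10.33) and replicate 4 for Klra5 (4.10, others 3.71 to 3.73) and Cd1d1 (6.47, others 6.25 to 6.28). In CD8bm1, replicate 2 stood apart for Ifng (13.33, others 13.66 to 13.69) and Ccl12 (9.24, others 10.43 to 10.53), replicate 3 for Tnf (11.11, others 11.42 to 11.47) and Dnajb9 (4.56, others 3.99 to 4.05) and replicate 4 for Amelx (6.37, others 5.99 to 6.02). Without the array concerned, each of these 21 differences kept its direction and its side of the call.

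The difference between the IL13+ clones and CD8bm1 differed between the activated and the dormant state, by the limma test of the change itself, for 30 of these genes; each value is the change, followed by the difference in each state. The change and the activated difference were both positive (for Il10 the activated difference was not called) for Il3 (4.88: 4.76 activated, -0.12 dormant), Xcl1 (3.50: 3.71 activated, 0.20 dormant), Olr1 (3.43: 3.81 activated, 0.38 dormant), Il13 (2.48: 4.55 activated, 2.07 dormant), Nr4a1 (2.42: 2.48 activated, 0.061 dormant), Ly6a2 (2.33: 5.02 activated, 2.69 dormant), Ccl9 (2.06: 2.35 activated, 0.29 dormant), Tubb6 (1.86: 4.63 activated, 2.77 dormant), Il5 (1.76: 5.14 activated, 3.38 dormant), Tnfsf4 (1.68: 2.54 activated, 0.87 dormant), Il2 (1.58: 1.59 activated, 0.0075 dormant), Amelx (1.48: 5.35 activated, 3.88 dormant), Cd74 (1.43: 1.95 activated, 0.52 dormant), Il10 (1.34: 0.23 activated, -1.11 dormant), Tnfrsf18 (1.30: 2.22 activated, 0.92 dormant) and Csf2 (1.20: 3.86 activated, 2.66 dormant). The activated deficit was smaller for Aldoc (3.57: -2.95 activated, -6.52 dormant), S1pr1 (2.01: -0.41 activated, -2.42 dormant), Klrg1 (1.29: -2.86 activated, -4.15 dormant) and Me1 (1.13: -5.35 activated, -6.48 dormant). The activated excess was smaller for Lilr4b (-3.60: 1.46 activated, 5.06 dormant), Lilrb4a (-2.73: 1.72 activated, 4.46 dormant), Ifng (-2.14: 0.25 activated, 2.39 dormant), Ctss (-1.30: 2.54 activated, 3.84 dormant) and Irf1 (-1.20: 1.88 activated, 3.08 dormant). The activated deficit was larger for Hhipl1 (-3.05: -3.51 activated, -0.46 dormant), Ccl12 (-2.84: -4.40 activated, -1.56 dormant), Ctla4 (-2.69: -3.47 activated, -0.78 dormant), Rgs2 (-1.68: -3.56 activated, -1.87 dormant) and Dsc2 (-1.47: -4.56 activated, -3.09 dormant).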

How the results depend on the processing

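The comparison of the activated IL13+ clones with CD8bm1 gave 857 calls, and counts stayed within 1.5 times of that under centring (860), quantile normalization (908), a filter on dim probe sets (825), a variance model without trend (857), array weights (859), only the arrays of the contrast (859), all rows of the table (1073) and each array left out (855 to 872). Without a fold minimum the counts were 5959 for both clones together, 7227 for sAg1, 7111 for sAg3, 4998 for the change with activation and 3788 against the IL13-negative clones; with the treat test against a log2 difference of 1 they were 492, 670, 629, 100 and 242. Leaving out single arrays gave 1181 to 1209 for sAg1, 1091 to 1134 for sAg3, 663 to 864 for the change and 403 to 419 against the IL13-negative clones. A call in each pair of clones left 463 against CD8bm1, 262 for the change and 120 against the IL13-negative clones; clone means as replicates left 61, 16 and 6, with fewer degrees of freedom by construction. The change gave 1661 calls without sAg3, and the IL13-negative comparison gave 1173 without sAg1 and 619 with no condition on the clones; the cause was not tested. Of the calls of the change 67.2% were positive, against 75.3% after centring, 56.1% with all rows of the table and 52.8% without sAg1 (528 calls). Replicate numbers did not pair the samples: deviations of same-numbered arrays correlated at -0.18 to 0.16 over 12 pairs, 2 of them over 0.1, and a fit with the replicate block gave 858, 1190, 1123, 804 and 410 calls. Il4, called under none of the alternatives, ran from -0.057 to 0.050 when single arrays were left out and changed sign, as did the histone gene H2ac4 (-0.36 to 0.065), likewise never called. Cd2 was the one called gene described above that lost its call without a single array, by falling under the minimum (0.86 to 0.99). The 4 arrays of each clone limit the precision, and signals below 7 give only bounds.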
